A study of Homo sapiens with 6 samples.

Results

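Aminoacyl-tRNA synthetases are the enzymes that attach each amino acid to its own transfer RNA, and their genes were followed here in MDA-MB-231 cells, an estrogen receptor-negative line from human breast cancer. The genes were taken by name from the array annotation, as symbols of the form of a letter, ARS and an optional final 1 or 2, together with EPRS1, FARSA and FARSB. Of 19775 genes with a probe set that carries exactly 1 gene symbol, 32 were synthetase genes, 17 counted as cytosolic (a final 1, EPRS1, FARSA and FARSB) and 15 as mitochondrial (a final 2). A further 3, MARS1, QARS1 and TARS2, had only probe sets with several symbols and were not used, and no other symbol of that form was analysed here. The rule used names only, though earlier results of these data were known when it was chosen.

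The cells received an siRNA against LSD1 (3 arrays) or a control siRNA (3 arrays) in 2 rounds of transfection, and total RNA was purified after 6 days. LSD1, encoded by KDM1A, is a demethylase of histone H3. The study states that the replicates are biological, and the labels give neither the siRNA sequences nor whether 1 or several siRNAs were used. The question put to the arrays was how gene expression changes when LSD1 is knocked down.

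Cytosolic synthetases serve translation by the ribosomes of the cytoplasm, and mitochondrial ones, made from separate nuclear genes for most amino acids, serve the ribosomes that make the few proteins encoded by mitochondrial DNA. GARS1 and KARS1 are exceptions, since each encodes the enzyme of both compartments. Several cytosolic synthetases sit in a multisynthetase complex, and all synthetases fall into class I or class II by the fold of their catalytic domain. Amino acid shortage is sensed through uncharged tRNA by the kinase GCN2, and the transcription factor ATF4, which is translated in response, is known to bind C/EBP-ATF elements near several synthetase genes.

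Each array gives a linear signal intensity for 54675 probe sets, scaled by the authors to a common trimmed mean of 500.1, so differences in total RNA per cell are not visible. Arrays hold no read depth, and their number limits the precision. KDM1A gave signals of 291, 184 and 228 with LSD1 siRNA, against 2540.1, 2493 and 2295 with control siRNA, which fits the labels. The ratio of the 3′ to the 5′ control probe set of ACTB, which grows as RNA degrades, was 1.33 to 1.39 with LSD1 siRNA and 1.74, 1.43 and 1.33 on control arrays 1, 2 and 3, and the part of control array 1 in the results was examined by leaving it out. All 6 genes fixed as markers of this cell line (VIM, CD44, EGFR, AXL, MSN and CAV1) had mean signals over all arrays of 4346 or more, and of 6 fixed as low in it, EPCAM (mean signals of 1644 with LSD1 siRNA and 1658 with control siRNA) and GATA3 (513 and 523 in the same order) were not low. The measured leukocyte markers, 4 of 6 listed, summed to 116 to 161 with LSD1 siRNA and 143 to 146 with control siRNA, and the 6 stromal and endothelial markers to 305 to 362 and 253 to 299 in the same order, and the highest mean signal of any of these genes was 149.9. The higher stromal sum came from LUM, which encodes the matrix protein lumican, with signals of 98.3, 86.3 and 101.0 with LSD1 siRNA, against 4.58, 0.595 and 0.518 with control siRNA; the arrays of the other 5 overlapped between the groups. LUM lay below the filter on low signals, and its part in the results was not tested.

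Some sequences near the start sites of these genes are shown here, and their part in the changes was not tested. HARS1 and HARS2, for the cytosolic and the mitochondrial histidine enzyme, lie head to head on chromosome 5 and are transcribed away from each other, so they share a promoter region. HARS1 rose with LSD1 siRNA and HARS2, at -0.05, did not pass. The ratios of HARS2 to HARS1, given with the pairs, were all lower with LSD1 siRNA than with control siRNA. The exact permutation test of these ratios cannot give a p below 0.1 with so few arrays. It therefore could not pass, and it cannot decide whether HARS1 and HARS2 changed differently. The 84 bases between their RefSeq start sites (GRCh38.p14, chr5:140691371-140691454, plus strand) are shown with matches to the ETS core, CCGGAAG on either strand, in capitals.
HARS1 and HARS2: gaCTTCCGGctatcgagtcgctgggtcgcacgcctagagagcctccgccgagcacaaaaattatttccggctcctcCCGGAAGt

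The second set shows the C/EBP-ATF element core, written TGATGNAA and searched on both strands, which 7 of 27 synthetase genes with a RefSeq promoter window hold. The windows run from 250 bases before a start site to 50 after it. Each stretch is 30 bases on the gene's own strand in GRCh38.p14, with the element in capitals, and it reads as the reverse complement in AARS1, CARS1, GARS1, IARS1 and TARS1.
AARS1, chr16:70289675-70289704, minus strand: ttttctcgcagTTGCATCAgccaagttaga
CARS1, chr11:3057407-3057436, minus strand: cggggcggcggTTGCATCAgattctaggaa
GARS1, chr7:30594834-30594863, plus strand: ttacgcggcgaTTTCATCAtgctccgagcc
IARS1, chr9:92293692-92293721, minus strand: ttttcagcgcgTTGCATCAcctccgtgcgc
NARS1, chr18:57621804-57621833, minus strand: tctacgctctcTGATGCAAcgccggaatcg
TARS1, chr5:33440956-33440985, plus strand: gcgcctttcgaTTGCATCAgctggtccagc
YARS2, chr12:32756076-32756105, minus strand: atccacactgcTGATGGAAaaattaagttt

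By their brightest probe sets, most synthetase genes moved little, and the ones that moved most were mitochondrial. A dimmer set of the cytosolic gene SARS1 was at -0.55. The mitochondrial genes were also dimmer, with mean signals of 272 to 5216 against 2024 to 22566 for the cytosolic ones. All 32 genes were bright enough to be tested, and 8 were lower and 3 higher with LSD1 siRNA at a limma adjusted p under 0.05. Among all 13822 genes tested 41.0% passed, 21.3% lower and 19.8% higher, so 11 of 32 (34.4%) is not more than the array as a whole. Of the 17 cytosolic genes 3 fell and 1 rose (23.5% passed), and of the 15 mitochondrial genes 5 fell and 2 rose (46.7% passed). No synthetase gene changed by 2-fold, while 640 of the 5673 genes that passed did. The median log2 change was -0.08 over the cytosolic genes and -0.17 over the mitochondrial genes, beside -0.02 over all genes tested. A log2 change is here the difference of group means of log2(signal + 15), and in RNA of whole cultures a change per cell and a change in how many cells express a gene cannot be told apart.

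**Figure D1:**
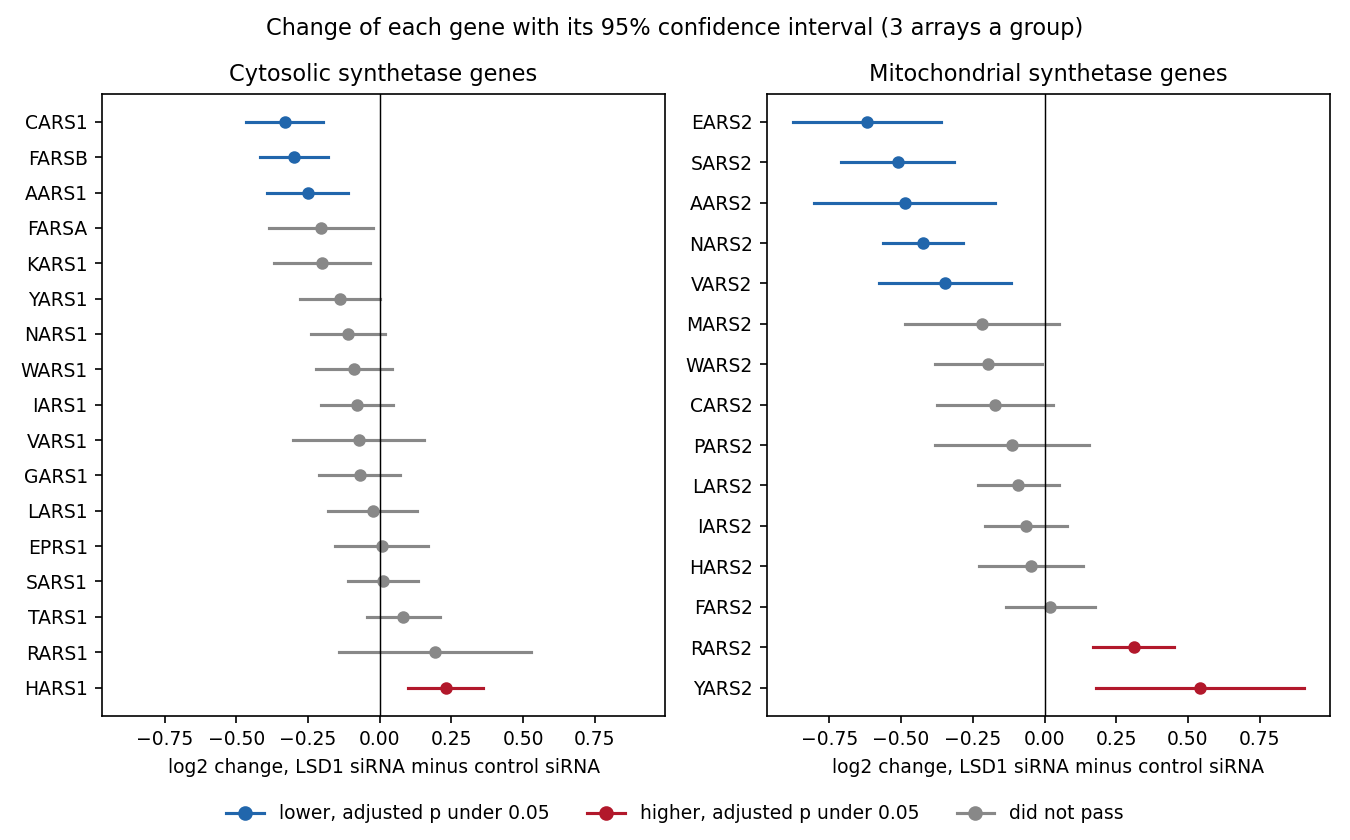
Log2 change of the 17 cytosolic (left) and 15 mitochondrial (right) synthetase genes, LSD1 siRNA minus control siRNA, as points with 95% confidence intervals from limma on 3 arrays a group. Blue genes passed as lower, red genes as higher, and grey genes did not pass; the changes run between -0.62 for EARS2 and 0.54 for YARS2.

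CARS1, the cytosolic cysteine enzyme, had signals of 8386, 8400.0 and 8591 with LSD1 siRNA, against 11342, 10574 and 10059 with control siRNA. All 3 LSD1 siRNA arrays were below all 3 control arrays, as they were for 26.2% of all genes tested. The log2 change was -0.33 (SE 0.06, limma adjusted p = 0.00104), a fall to 79.4% of the control mean. FARSB, the beta subunit of the phenylalanine enzyme, had signals of 3707, 3749.8 and 3662 with LSD1 siRNA, against 4551, 4567 and 4559.9 with control siRNA. Its control arrays lay close together and its groups did not overlap. The log2 change was -0.30 (SE 0.05, limma adjusted p = 8.71e-04).

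FARSA encodes the catalytic alpha subunit, and the enzyme works as a tetramer of alpha and beta subunits. Its brightest probe set had signals of 1943, 1846 and 1841 with LSD1 siRNA, against 1889, 2284 and 2341 with control siRNA, with control array 1 among the LSD1 siRNA values. The change of -0.20 did not pass (limma adjusted p = 0.0712), and without control replicate 1 it was -0.30 and passed (adjusted p = 0.00628). The dimmer FARSA probe set had signals of 1783, 1513 and 1624 with LSD1 siRNA, against 1916, 1952 and 2003 with control siRNA. It was lower at -0.26 in a test over every probe set with 1 symbol (limma adjusted p = 0.0190), where 34.4% of 27079 probe sets passed.

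AARS1, the cytosolic alanine enzyme, had signals of 2403, 2552 and 2599.8 with LSD1 siRNA, against 2954, 3181 and 2864 with control siRNA. The groups did not overlap, and the log2 change was -0.25 (SE 0.07, limma adjusted p = 0.00834). HARS1 was the cytosolic gene that rose. It had signals of 4399, 4480.2 and 4234 with LSD1 siRNA, against 3919, 3594 and 3665 with control siRNA. Every LSD1 siRNA array was above every control array (24.2% of all genes tested), and the log2 change was 0.23 (SE 0.06, limma adjusted p = 0.00871).

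The other 12 cytosolic genes beside FARSA that did not pass lay between 86.9% of the control mean, for KARS1, and 112% for RARS1. KARS1, the lysine enzyme, had signals of 19545, 22099.8 and 21322 with LSD1 siRNA, against 26255, 23777 and 22398 with control siRNA. The groups did not overlap, but the change of -0.20 missed the threshold (limma adjusted p = 0.0541) and passed without control replicate 3 (-0.25, adjusted p = 0.0147) and after quantile normalization (adjusted p = 0.00165). The changes of YARS1, NARS1, WARS1, IARS1, VARS1, GARS1 and LARS1 were -0.14, -0.11, -0.09, -0.08, -0.07, -0.07 and -0.02 on the log2 scale, and none passed. EPRS1, a single protein that charges glutamate and proline, was at 0.01, SARS1 at 0.01 and TARS1 at 0.08.

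RARS1, the arginine enzyme, was the least precise cytosolic gene. Its signals were 7908, 6628 and 8351 with LSD1 siRNA, against 5097, 6618 and 8688 with control siRNA. The control arrays alone span the LSD1 siRNA values, and the change of 0.19 had a 95% confidence interval of -0.14 to 0.53. Without control replicate 3 it was 0.39 and passed (limma adjusted p = 0.0205). The cytosolic count as a whole moved with that array: 8 genes passed without control replicate 3, 6 lower (KARS1, YARS1 and VARS1 in addition) and 2 higher, against 4 with all arrays.

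By structure, the calls were spread over both classes. Of the multisynthetase complex, 5 synthetases were measured (EPRS1, IARS1, KARS1, LARS1 and RARS1), and 0 passed with limma (1, KARS1, had an unadjusted p under 0.05), at a median of -0.02, while 4 of the 12 other cytosolic genes (33.3%) passed at a median of -0.10, beside 41.0% of all genes tested. Over both compartments 3 of 16 class I genes fell and 2 rose, and 5 of 15 class II genes fell and 1 rose, so that 31.2% and 40% passed, neither more than over all genes; EPRS1 holds a catalytic domain of each class and stands in neither count. AIMP1, the 1 scaffold gene of the complex that was analysed here, had mean signals of 4078 ± 109.7 with LSD1 siRNA and 4347 ± 128 with control siRNA (SD, n = 3 each), and its change of -0.09 did not pass. These are counts, and the difference between the groups of genes was not tested.

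The mitochondrial genes that fell were those for glutamate, serine, alanine, asparagine and valine. EARS2, the mitochondrial glutamate enzyme, had signals of 458, 438 and 342 with LSD1 siRNA, against 613, 616 and 686 with control siRNA. The groups were well apart, and the LSD1 siRNA mean was 64.7% of the control mean, the lowest among the brightest probe sets of the 32 genes with all arrays. With the mean of all probe sets AARS2 (-0.61), SARS2 (-0.51), NARS2 (-0.42), VARS2 (-0.35) and the cytosolic SARS1 (-0.27) were lower than EARS2 (-0.25). Without LSD1 siRNA replicate 3 SARS2 (-0.53) was lower than EARS2 (-0.49). The log2 change of EARS2 with its brightest set and all arrays was -0.62 (SE 0.12, limma adjusted p = 0.00119).

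SARS2, the mitochondrial serine enzyme, had signals of 394, 407 and 417 with LSD1 siRNA, against 587, 605 and 565 with control siRNA. The values within each group lay close together, and the log2 change was -0.51 (SE 0.09, limma adjusted p = 6.90e-04). NARS2, for asparagine, had signals of 1268, 1261 and 1294 with LSD1 siRNA, against 1687, 1772 and 1689.8 with control siRNA. Its adjusted p was the smallest of the 32 genes, with a log2 change of -0.42 (SE 0.06, limma adjusted p = 2.14e-04). SARS2 and NARS2 each passed in all 15 alternative settings, with NARS2 between -0.44 and -0.40. Both have 1 probe set, so the setting with the mean of all probe sets left their values as they were.

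AARS2, the mitochondrial alanine enzyme, had signals of 242, 258 and 181 with LSD1 siRNA, against 335, 317 and 312 with control siRNA. The groups did not overlap, and the log2 change was -0.49 (SE 0.14, limma adjusted p = 0.0174). It did not pass without LSD1 siRNA replicate 3 (-0.34, adjusted p = 0.0691) or without control replicate 1 (-0.46, adjusted p = 0.0538). VARS2, for valine, had signals of 808, 703 and 768 with LSD1 siRNA, against 1122, 959.9 and 842 with control siRNA. Its groups did not overlap, but control array 3 lay close to LSD1 siRNA array 1. The log2 change was -0.35 (SE 0.10, limma adjusted p = 0.0200), and it did not pass without control replicate 1 (adjusted p = 0.0873), without LSD1 siRNA replicate 2 (0.0783) or with no intensity trend (0.0751).

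The mitochondrial genes that rose were RARS2 and YARS2. RARS2, the mitochondrial arginine enzyme, had signals of 1749, 1831 and 1861 with LSD1 siRNA, against 1412, 1459 and 1506 with control siRNA. All LSD1 siRNA arrays were higher, and the log2 change was 0.31 (SE 0.06, limma adjusted p = 0.00210). YARS2, for tyrosine, had signals of 1216, 965 and 1587 with LSD1 siRNA, against 722, 791 and 1039 with control siRNA. The groups overlap, since LSD1 siRNA array 2 lay below control array 3. The log2 change of 0.54 (SE 0.17, limma adjusted p = 0.0206) was the highest of the 32 genes. It did not pass without LSD1 siRNA replicate 3 (0.36, adjusted p = 0.0897), control replicate 1 (0.43, adjusted p = 0.0869) or control replicate 2 (0.50, adjusted p = 0.0687), or with no intensity trend (adjusted p = 0.107).

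**Figure D2:**
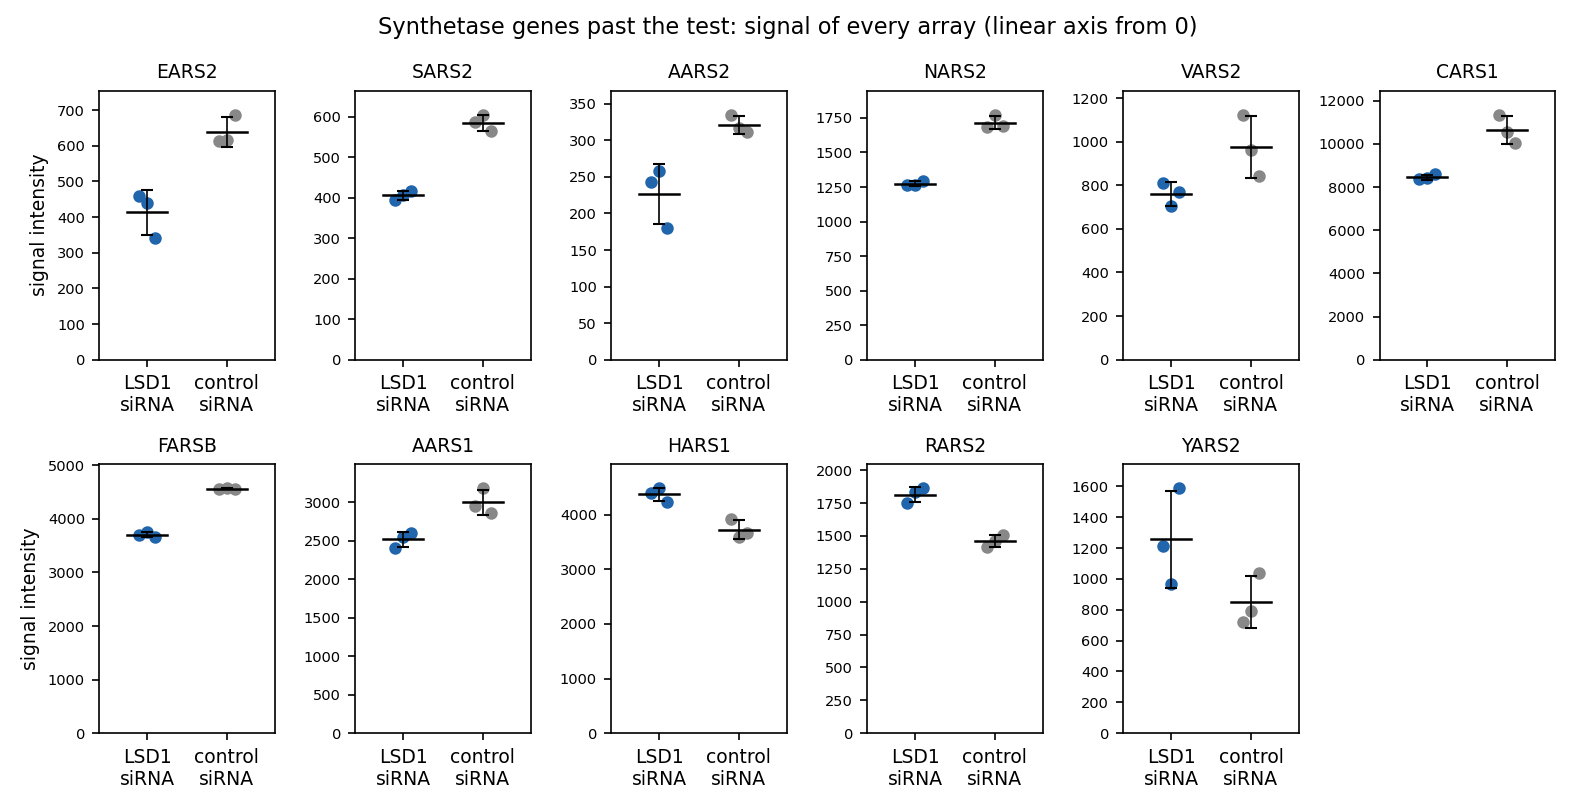
Signal intensity on every array for the 11 synthetase genes that passed, LSD1 siRNA left of control siRNA, on linear axes from 0; dots are arrays, bars the mean and whiskers the SD of 3 arrays. The groups are apart in each gene but YARS2, where 965 with LSD1 siRNA lies below 1039 with control siRNA.

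The 8 mitochondrial genes that did not pass lay between 85.9% of the control mean, for MARS2, and 101% for FARS2. WARS2, for tryptophan, had signals of 732, 698 and 664 with LSD1 siRNA, against 865, 756 and 785 with control siRNA. The groups did not overlap, but the change of -0.20 did not pass (limma adjusted p = 0.0889). The changes of MARS2, CARS2, PARS2, LARS2, IARS2, HARS2 and FARS2 were -0.22, -0.17, -0.11, -0.09, -0.06, -0.05 and 0.02, and the arrays of their groups overlapped. CARS2 passed without LSD1 siRNA replicate 1 (-0.27, limma adjusted p = 0.0275), where the mitochondrial count was 8. The mitochondrial count was 4 (3 lower and 1 higher) without control replicate 1, against 7 with all arrays. Mitochondrial genes were measured less precisely, with a median standard error of 0.09 against 0.06 for cytosolic ones.

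For 11 amino acids both enzymes were measured, and their changes stand side by side. The mitochondrial gene had the lower change in 7 pairs and the higher in 4. For histidine, HARS2 had signals of 1105, 1069 and 936 with LSD1 siRNA, against 1091, 1105 and 1011 with control siRNA, where its neighbour HARS1 rose. The log2 ratio of HARS2 to HARS1 on each array was -1.98, -2.05 and -2.16 with LSD1 siRNA, against -1.83, -1.69 and -1.84 with control siRNA. These ratios did not overlap between groups, and they differed by -0.28 on average (exact two-sided permutation p = 0.1, the smallest that 3 against 3 arrays allow, and 0.275 after Benjamini-Hochberg adjustment over the 11 pairs). The ratios were likewise apart, and lower with LSD1 siRNA, for asparagine, valine and, with the brightest SARS1 set, serine, 4 of 11 pairs in all. Among all genes tested, 26.2% had every LSD1 siRNA array below every control array and 24.2% every one above. The share for ratios of gene pairs in general was not computed. The 84 bases between the start sites of HARS1 and HARS2, printed above, hold the ETS core near either end, and its part in these changes was not tested.

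The widest gap was in tyrosine, where YARS2 rose and YARS1 was at -0.14, with a difference of 0.68 and ratios that overlap between the groups. The next was in serine, where SARS2 fell and the brightest SARS1 probe set was at 0.01, with a difference of -0.52. That gap depends on the probe set: SARS2 minus the dimmer SARS1 set was 0.04, with ratios that overlap between the groups, and with the mean of all sets of each gene it was -0.24. With the mean of all sets the tryptophan and arginine differences changed sign, to 0.23 and -0.03, and the differences ran between -0.36 in alanine and 0.77 in tyrosine. That mean takes in sets below the filter. Of these, a WARS2 set had mean signals of 6.25 with LSD1 siRNA and 1.13 with control siRNA. RARS2 had such sets with mean signals of 20.4 or less in either group. Asparagine and valine had differences of -0.31 and -0.27, with NARS2 and VARS2 lower. In alanine both genes fell, and AARS2 minus AARS1 was -0.24. In arginine both changes were positive, 0.31 for RARS2 and 0.19 for RARS1, and in cysteine the cytosolic gene had the lower change, with CARS2 minus CARS1 at 0.16. Tryptophan (-0.11), leucine (-0.07) and isoleucine (0.01) had the smallest differences.

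**Figure D3:**
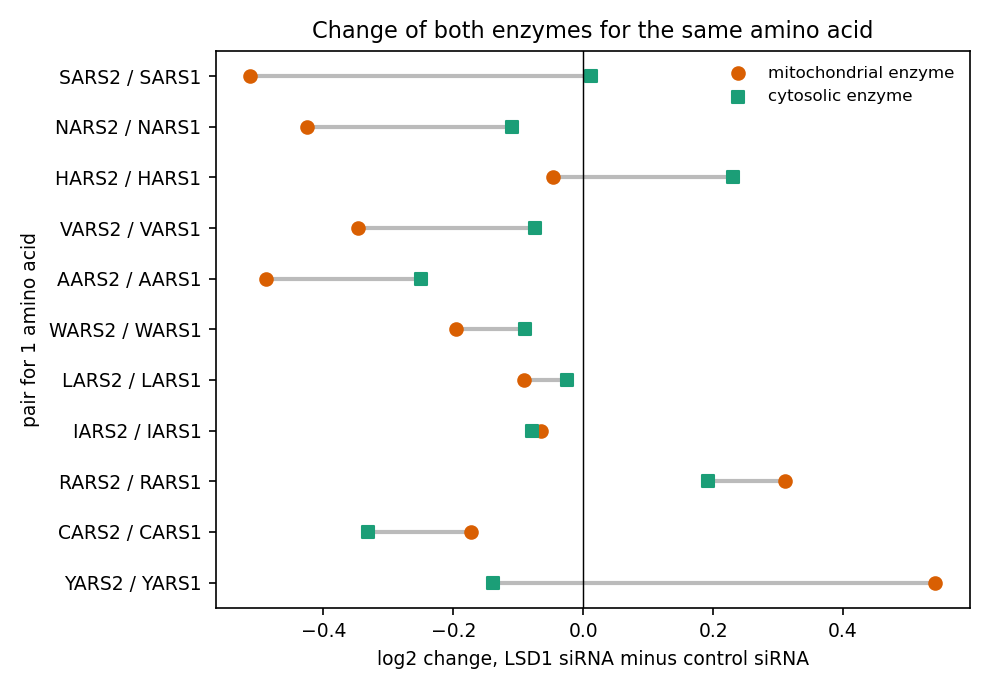
Log2 change (LSD1 siRNA minus control siRNA) of the mitochondrial enzyme (orange circles) and the cytosolic enzyme (green squares) for each of 11 amino acids, with a grey bar for the gap. Each gene is shown by its brightest probe set. Gaps run between -0.52 in serine and 0.68 in tyrosine, mitochondrial minus cytosolic, and the serine gap is -0.24 with the mean of all sets.

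Several synthetase genes have more than 1 probe set, and these did not always move alike. Of 67 probe sets of the 32 genes, 61 were above the filter. Of these, 12 were lower and 4 higher with limma over every probe set with 1 symbol, where 34.4% of 27079 passed in either direction. Of the 18 genes with more than 1 set above the filter, the sets differed in their call in 6 (CARS1, EARS2, FARSA, FARSB, RARS2 and SARS1), and in 0 did they pass in opposite directions.

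SARS1, the cytosolic serine enzyme, is the plainest case. Its brighter set had signals of 6172, 6262 and 6297 with LSD1 siRNA, against 6341, 6299 and 5946 with control siRNA, while its dimmer set had 723, 733 and 749 with LSD1 siRNA, against 1004, 1138 and 1110.1 with control siRNA. The arrays overlap in the brighter set and are well apart in the dimmer, where the log2 change was -0.55 (SE 0.08, limma adjusted p = 2.23e-04). What transcript each set reads is not given in the sources used here, and with the mean of all sets SARS1 was at -0.27 (adjusted p = 0.00403).

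The other sets of the genes that passed were mixed. A dimmer CARS1 set fell by 0.44 on the log2 scale and a dimmer AARS2 set by 0.73 (limma adjusted p = 0.00274 and 0.0241), and another RARS2 set rose by 0.24 (adjusted p = 0.0349). The remaining CARS1 sets were at -0.06 and 0.10 and did not pass. The set at 0.10 was dim, with mean signals of 54.5 with LSD1 siRNA and 44.6 with control siRNA. Other EARS2 sets were at -0.40, -0.27 and 0.27 and did not pass. In the set at -0.40 the groups did not overlap (limma adjusted p = 0.0528). The set at 0.27 was dim, with mean signals of 52.2 with LSD1 siRNA and 43.0 with control siRNA. The other FARSB sets, of mean signals of 57.5 or less in either group, were at -0.04 and 0.11. With the mean of all sets of a gene in place of the brightest, CARS1 (-0.18), FARSB (-0.08), EARS2 (-0.25) and RARS2 (0.16) did not pass (limma adjusted p = 0.192, 0.735, 0.101 and 0.410 in that order). That mean takes in every set, for RARS2 also sets below the filter.

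**Figure D4:**
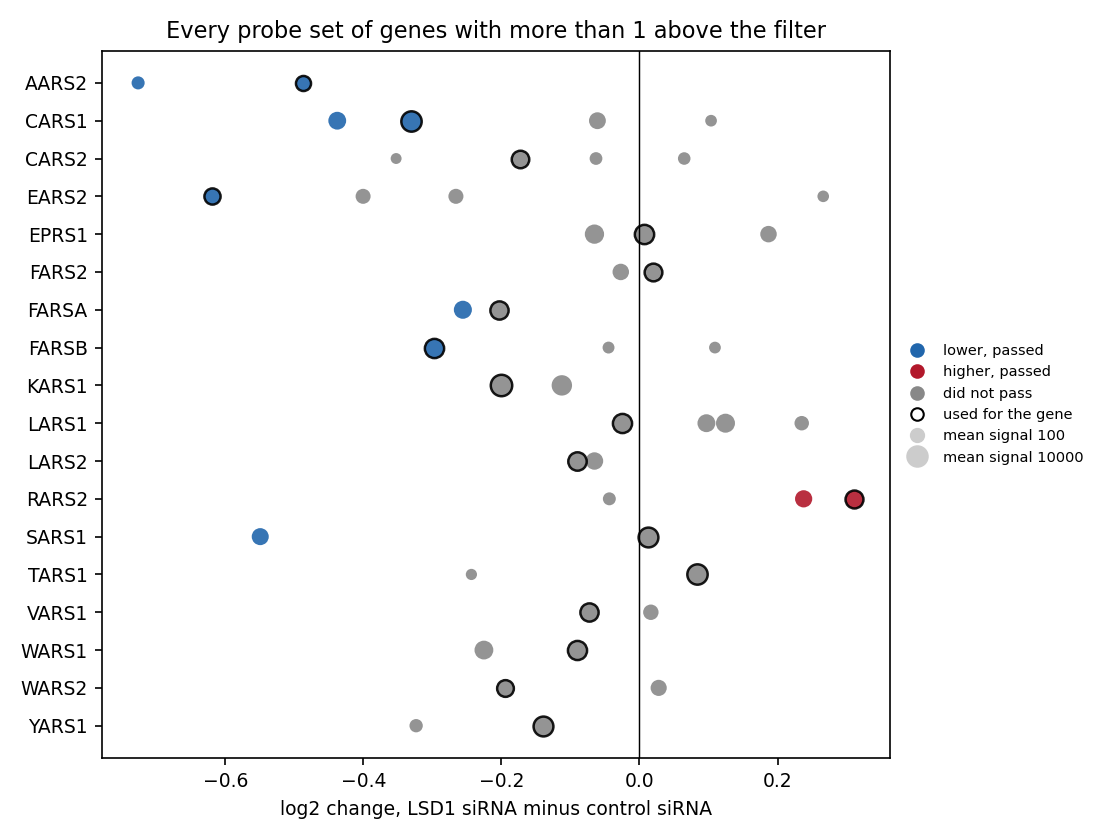
Log2 change (LSD1 siRNA minus control siRNA) of every probe set above the filter for the 18 synthetase genes with more than 1; colour gives the call, point size grows with the log10 mean signal, and a black ring marks the set used for the gene. SARS1 has a ringed set at 0.01 and a dimmer set at -0.55 that passed as lower.

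The C/EBP-ATF element core stood in 19.4% of the 36 promoter windows of synthetase genes and in 3.62% of 35116 windows of all genes. It was found in 6 of 14 cytosolic and 1 of 13 mitochondrial genes with a window. The 6 cytosolic genes that hold it include AARS1 and CARS1, which fell, and GARS1, IARS1, NARS1 and TARS1, which did not pass. YARS2, the mitochondrial gene that holds it, rose. Of the other motifs searched on both strands, the ETS core CCGGAAG was in 50% of the 36 windows and 10.26% of all windows, the NRF1 core in 22.2% and 5.78%, the MYC E-box CACGTG in 13.9% and 7.26%, and the cyclic AMP response element TGACGTCA in 0 and 1.85%. The letters of no motif contain those of another, the windows of a gene with several starts can overlap, and a match does not show that a factor binds.

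Genes around the charging step were read from lists of each route, whose counts stand beside 21.3% lower and 19.8% higher over all genes tested. Of 4 mitochondrial charging partners, QRSL1, a subunit of the amidotransferase that turns glutamate on mitochondrial glutamine tRNA into glutamine, fell by 0.27 on the log2 scale (limma adjusted p = 0.0245), and GATB and GATC, its other subunits (0.05 and -0.05), and MTFMT, which formylates the initiator methionine tRNA (0.17), did not pass. EARS2 charges the tRNA that this amidotransferase acts on. Of 5 genes of the selenocysteine route, which starts from serine charged on its tRNA by SARS1, 3 fell: PSTK (-0.85), the kinase of that charged tRNA, SEPHS1 (-0.71), a relative of the selenophosphate synthetase gene SEPHS2, and EEFSEC (-0.52), its elongation factor. Of the other members, SEPSECS (0.09), which converts the bound serine, and SEPHS2 (0.11) did not pass.

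Of 20 tested genes for the transcription of tRNA genes by RNA polymerase III, 5 fell and 3 rose, which is 40% beside the 41.0% of all genes tested. BRF1, a subunit of its initiation factor TFIIIB, had a mean signal of 121 ± 14.98 with LSD1 siRNA and 255 ± 48.0 with control siRNA (SD, n = 3 each), a log2 change of -0.98. POLR3GL, a polymerase subunit, rose by 0.61 and POLR3K, another, fell by 0.70. Of 21 genes of tRNA maturation and export, 7 fell and 1 rose, 38.1% beside the same 41.0%. POP7 (-0.97) and POP5 (-0.66), protein subunits of ribonuclease P, which trims the 5′ end of tRNA, and TSEN54 (-0.72), of the tRNA splicing endonuclease, were among the falls.

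Of 27 tRNA modification genes, 14 fell and 0 rose with limma (2 were higher at an unadjusted p under 0.05), beside 21.3% lower over all genes. CTU2, which acts in thiolation of the wobble base, was at -0.74, TRMT61A, a methyltransferase subunit, at -0.54 and TRMT1, another methyltransferase, at -0.38. Of the elongation factors of translation, EEF1A2 (-0.44), EEF1D (-0.50) and EEF2 (-0.36) fell among 4 cytosolic ones, and TUFM (-0.39) and TSFM (-0.20) among 3 mitochondrial ones. The others, EEF1A1 (-0.05, mean signals of 929 with LSD1 siRNA and 964 with control siRNA) and GFM1 (-0.08), did not pass. EEF1A1 was read from 1 probe set, chosen by a rule that leaves out sets with several symbols and avoids the x suffix. Whether that set stands for the gene as a whole was not tested. DTD1 (-0.08) and DTD2 (0.16), the tRNA proofreading genes tested, did not pass. The lists were chosen by function and their shifts against other genes were not tested.

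The kinase and transcription factor that link uncharged tRNA to synthetase genes moved in opposite directions. EIF2AK4, which encodes GCN2, rose by 0.44 on the log2 scale, with mean signals of 1978 ± 85.6 with LSD1 siRNA and 1453 ± 104 with control siRNA (SD, n = 3 each). ATF4 fell by 0.18 (limma adjusted p = 0.0484). These genes were named for their role after their values were seen. Of 19 genes in that list, 4 rose (21.1%) and 7 fell (36.8%), beside 19.8% and 21.3% of all genes tested. By the smallest p-values, the cystine transporter gene SLC7A11 rose by 0.81, CEBPB rose by 0.44 and SLC7A5 fell by 0.58. Also named after their values were seen, PHGDH, the first enzyme of serine synthesis, fell by 1.11, ASNS, which makes asparagine, by 0.31, DDIT3 by 0.28 and PSAT1, of serine synthesis, by 0.27. EIF2AK1 fell by 0.26 and EIF2AK3 rose by 0.43. The rest of the list did not pass: ATF3 (0.26), PPP1R15A (0.13), SESN2 (0.06), SLC3A2 (0.05), CHAC1 (0.03), TRIB3 (-0.09), CEBPG (-0.09) and EIF2AK2 (-0.11). ATF4 is controlled largely at translation, which these arrays do not measure.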

How the data were processed

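RNA of 6 cultures was measured on Affymetrix arrays, and the authors deposited linear signal intensity values; the tools named per the submitters' processing notes are MAS5, GCOS and, at version 1.1, Affymetrix Expression Console. The values carry no detection calls. Probe sets with 1 symbol (41097 of 54675) were named from the platform annotation, with control sets left out, and 1801 with several symbols and 11777 not listed were not used. RefSeq tables (GRCh38.p14) matched 41037 of the sets used, changed 0 symbols, and gave the promoter windows.

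Each gene was represented by its brightest probe set, without the x suffix where there was another. Genes whose mean log2(signal + 15) was above the 40th percentile, a signal of about 28.0, were tested with limma 3.58.1 in R 4.3.3 (intensity trend, two-sided, Benjamini-Hochberg over 13822 genes, threshold 0.05). On simulated data for this comparison (13822 genes, 50 changed at each size) 7 changes of 1.25-fold were found, 24 of 1.5-fold, 34 of 2-fold and 46 of 3-fold, and 4 calls were false. Far fewer genes were changed there than passed in the data, so the adjusted threshold was stricter and these counts do not give the sensitivity of the test on the data. The members and lists were chosen with earlier results of these data known. All members are named, with KDM1A, the tested genes of lists of up to 6 related genes, and up to 3 genes with the smallest p of each longer list. Beyond that rule, the other genes of the list with EIF2AK4 and ATF4 were named after their values were seen. Figures were drawn with matplotlib 3.10.9.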

Additional observations from a re-analysis of the deposited data

How the results depend on the processing

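Of the 11 synthetase genes that passed, 4 (AARS1, HARS1, NARS2 and SARS2) passed in the same direction in all 15 alternatives. Each of these 4 has 1 probe set, so the mean of all probe sets left its values as they were. CARS1, FARSB, EARS2 and RARS2, which have several sets, failed to pass in that alternative only. Without 1 array, the number of genes passed ran from 4832 to 5732 over the array, from 4 to 8 among cytosolic synthetase genes and from 4 to 8 among mitochondrial ones, and the KDM1A change from -3.48 to -3.17. The 8 cytosolic genes came without control replicate 3 and the lowest mitochondrial count, 4, without control replicate 1. With the mean of all probe sets SARS1 was at -0.27 and passed, where its brightest set was at 0.01, because a dimmer set of that gene was lower. Quantile normalization gave 6 cytosolic genes, with KARS1 and NARS1 (adjusted p = 0.0398) added, and with no intensity trend 5 mitochondrial genes passed. Constants of 1 and 60, no filter, a filter at the 60th percentile and median centring changed the call of no synthetase gene. With the replicate number as a block 5679 genes passed over the array, 4 cytosolic and 7 mitochondrial, and same-numbered arrays did not deviate together (correlations of 0.01, -0.01 and 0.02). The number of arrays, 3 a group, limits the precision.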
